A study of Arabidopsis thaliana with 6 samples.

Results

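GI (AT1G22770) and 4 cold-regulated (COR) genes were examined in the seedling transcriptomes of WT Arabidopsis and of a line that over-expresses the rice homeobox gene OsHOX24. The COR genes were COR15A (AT2G42540), COR15B (AT2G42530), COR47 (AT1G20440) and LTI30 (AT3G50970). Each was read by 1 probe set that is paired with no other gene, and the members are thus 5 of the 13286 genes that could be read from at least 1 such probe set. They were chosen by name, from arrays whose signals were already known, for how they vary between arrays. Their levels, their spread and their likeness to each other are therefore descriptions and carry no test.

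Total RNA of whole 10-day-old seedlings of ecotype Columbia, grown without a named stress under 14 h of light and 10 h of dark, was hybridised to Affymetrix GeneChip arrays. The paper grew Arabidopsis in a potting mixture or on MS plates and does not say which held these seedlings. Each genotype had 3 arrays, which the paper describes as independent biological replicates. The transgenic seedlings came from the single homozygous line HZIP1-2.3, in which the CaMV 35S promoter drives OsHOX24 in most tissues, so line and transgene cannot be told apart. The hour of the day at which seedlings were collected is not given in the sources used here. Because whole seedlings were extracted, fewer cells that express a gene and less RNA per cell cannot be told apart.

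GI encodes GIGANTEA, a large nuclear and cytosolic protein of the circadian clock. Its transcript is known to cycle with a peak late in the day, and the protein stabilises the photoreceptor ZTL and, with FKF1, promotes flowering in long days. COR genes are switched on by low temperature, largely through CBF transcription factors, which bind the C-repeat (dehydration-responsive) element in their promoters. COR15A and COR15B encode small chloroplast stroma proteins that protect membranes during freezing. The genes lie next to each other on chromosome 2 and arose by duplication. COR47 and LTI30 encode dehydrins, hydrophilic proteins that accumulate under cold, drought and abscisic acid. The clock is known to gate the cold induction of CBF genes over the day, which connects GI's pathway with that of the COR genes.

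The deposited values are MAS5 signals on the log2 scale, scaled to a 2% trimmed mean of 500.1 in every array, so that 1 unit is a 2-fold difference. Array medians were 7.24 to 7.42 (log2), and Pearson's r between any pair of arrays, over all probe sets, was 0.929 to 0.955. The GAPDH control compares the 3' with the 5' end of a transcript, and a larger difference means that fewer 5' ends were read. This difference was 3.25, 1.63 and 4.80 (log2) in WT replicates 1, 2 and 3 and 3.29, 3.63 and 2.39 in 35S::OsHOX24 replicates 1, 2 and 3. Of 18 listed markers of green tissue, root, seed and flower, 2 could be named. RCA, the Rubisco activase gene of green tissue, was 14.28 to 14.74 (log2) over the 6 arrays, and the root hair expansin gene EXPA7 was 2.86 to 5.47. The other markers were not analysed here.

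GI, COR15A and COR15B had high signals in replicate 1 of both genotypes and far lower signals in the remaining 4 arrays. The signal of GI was 10.36, 7.77 and 6.63 (log2) in WT replicates 1, 2 and 3 and 9.90, 6.39 and 6.61 in 35S::OsHOX24 replicates 1, 2 and 3. The highest array was 15.7-fold above the lowest. Both replicate 1 arrays stood at least 2.13 (log2), or 4.39-fold, above every other array, whereas these 2 arrays differed from each other by 0.46.

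COR15A, the better studied of the chloroplast pair, spanned the widest range of the 5 genes. Its signal was 10.84, 5.20 and 5.95 (log2) in WT replicates 1, 2 and 3 and 9.67, 5.66 and 6.86 in 35S::OsHOX24 replicates 1, 2 and 3. WT replicate 1 was thus 49.9-fold above WT replicate 2, the lowest array. The 4 low arrays lay under the median of mean signals over all probe sets, 7.29. COR15B, its neighbour, was 11.15, 6.23 and 7.52 (log2) in WT replicates 1, 2 and 3 and 10.58, 7.64 and 7.15 in 35S::OsHOX24 replicates 1, 2 and 3. Replicate 1 of either genotype was at least 7.64-fold above the other arrays for COR15B and at least 7.01-fold for COR15A. Neither probe set is marked as cross-hybridizing, although the genes are similar in sequence.

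**Figure D1:**
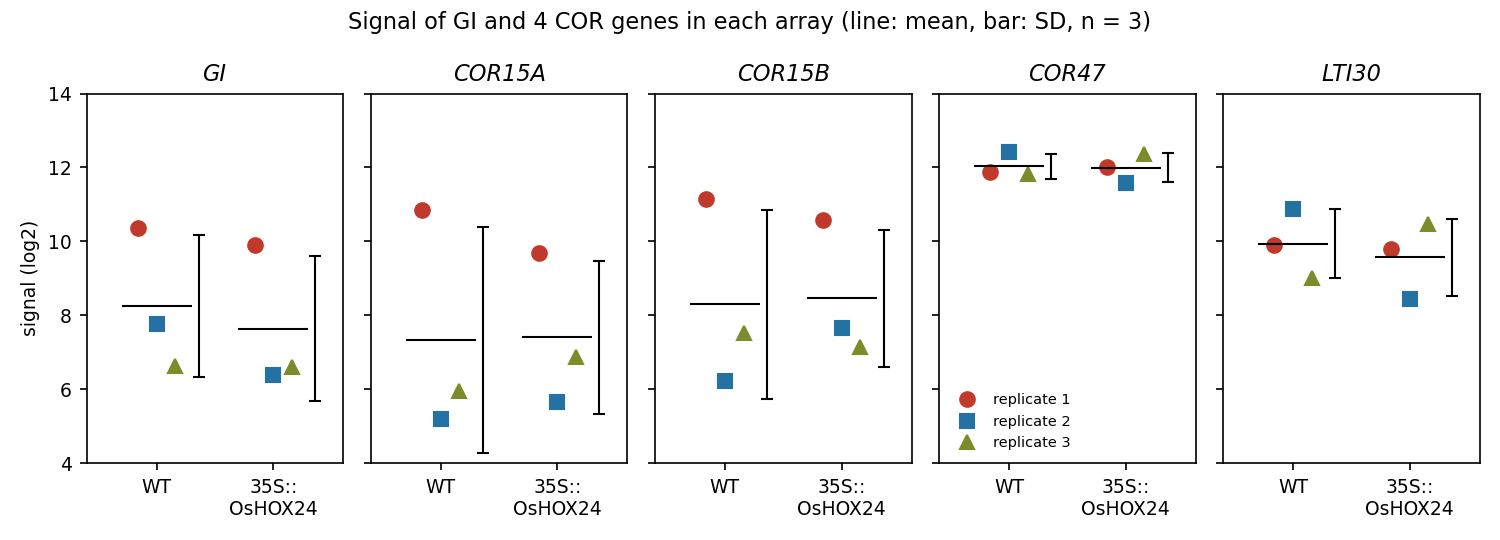
Log2 signal of GI, COR15A, COR15B, COR47 and LTI30 in each of the 6 arrays, by genotype, with 1 symbol per replicate number, a line at the mean and a bar for the SD (n = 3). For GI, COR15A and COR15B the replicate 1 arrays of both genotypes lie between 9.67 and 11.15 and all other arrays at or below 7.77, whereas for COR47 and LTI30 the highest arrays are WT replicate 2 and 35S::OsHOX24 replicate 3.

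COR47 and LTI30 ordered the arrays differently. COR47, an acidic dehydrin, was 11.87, 12.42 and 11.81 (log2) in WT replicates 1, 2 and 3 and 12.02, 11.58 and 12.36 in 35S::OsHOX24 replicates 1, 2 and 3. WT replicate 2 and 35S::OsHOX24 replicate 3 were the highest, and all arrays lay within 1.79-fold. LTI30, a dehydrin also known as XERO2, was 9.90, 10.88 and 9.02 (log2) in WT replicates 1, 2 and 3 and 9.80, 8.43 and 10.47 in 35S::OsHOX24 replicates 1, 2 and 3. The same arrays were the highest, 35S::OsHOX24 replicate 2 was again the lowest, and the range was 5.48-fold. For both dehydrin genes the replicate 1 arrays took the middle places, and they differed from each other by only 0.15 (log2) for COR47 and 0.09 for LTI30.

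The spread of these genes can be set beside that of the 11373 probe sets above the median signal, whose median SD over the 6 arrays was 0.31 (log2) and whose 99th percentile was 1.15. The SD was 2.33 for COR15A, 1.996 for COR15B and 1.77 for GI, so that 99.98%, 99.96% and 99.9% of these probe sets spread less. LTI30 had an SD of 0.91, with 97.5% of probe sets below it, and COR47 one of 0.33, with 54.7% below it. Hence COR47 varied about as much as a typical probe set, whereas COR15A had the second widest range of all 11373. COR15A is close to the lower edge of this set of probe sets, with a mean signal of 7.36 against the median of 7.29. GI, COR15A and COR15B are in this set only through their high replicate 1 arrays, since their other arrays average under that median. Their percentages thus describe these arrays and carry no test.

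**Figure D2:**
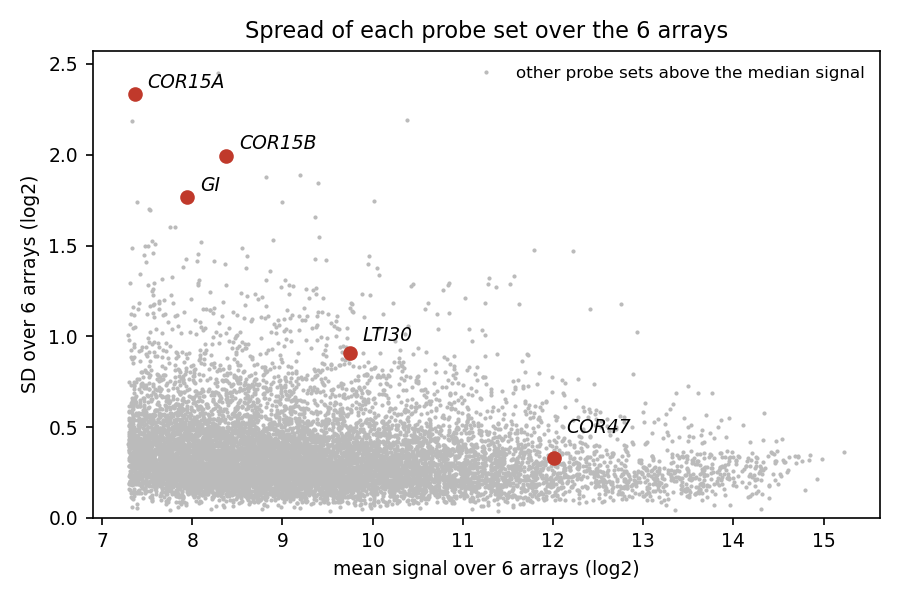
SD over the 6 arrays (log2) against the mean signal over the 6 arrays (log2), for the 11373 probe sets above the median signal, with the 5 genes in red. COR15A, COR15B and GI, with SDs of 2.33, 1.996 and 1.77, stand above nearly all other probe sets, LTI30 at 0.91 lies in the upper part and COR47 at 0.33 within the bulk.

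Among these 11373 probe sets, the replicate 1 arrays of both genotypes were above the other 4 arrays in 8.92%, and by at least 1 (log2) in 0.167%, which is 19 probe sets. By the size of this gap, COR15B (2.93), COR15A (2.81) and GI (2.13) took the top 3 places. A probe set with no gene named here came next, with a gap of 2.096. Of the 19 probe sets, 9 had a gene named here, and beside the 3 members these included AT5G57760 (gap 1.80), AT4G30650 (1.47), the defensin gene PDF2.1 (1.21) and the plantacyanin gene ARPN (1.20). This ordering of arrays was looked for after the signals of the 3 members had been seen. The 3 members also entered this set of probe sets only through their high replicate 1 arrays, so their places in it are no test.

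Within the 4 arrays other than replicate 1, GI and the COR15 genes no longer ordered the arrays alike. GI was highest in WT replicate 2, at 7.77 (log2), and 6.39 to 6.63 in the other 3 of these arrays. COR15A and COR15B were lowest in that same array, at 5.20 and 6.23. COR15A was highest in 35S::OsHOX24 replicate 3, at 6.86, and COR15B in 35S::OsHOX24 replicate 2, at 7.64. Over these 4 arrays the range was 1.37 for GI, 1.67 for COR15A and 1.42 for COR15B. The median range of probe sets above the median signal was 0.69. That set was picked by the mean over the 6 arrays, and over these 4 arrays the named genes averaged under its limit. It is therefore not a like set to compare them with. Because the signals of these genes fall into a pair of high arrays and a set of 4 low ones, a correlation over the 6 arrays mainly restates this step and is not given for pairs of members that include them. Over the 4 low arrays, r was 0.41 between COR15A and COR15B, -0.60 between GI and COR15A and -0.97 between GI and COR15B, values from too few arrays to describe a relation.

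COR47 and LTI30 formed no such separate sets. Over the 6 arrays, Pearson's r between them was 0.95 and Spearman's rho was 0.94. Without WT replicate 2 and 35S::OsHOX24 replicate 3, the arrays farthest from the median of COR47, r was 0.90 over the remaining 4 arrays. The r of deviations from the genotype means was 0.96. Of the 10 possible pairs of members, this is the only one for which a correlation over all 6 arrays is given, and no p is attached because the pair was chosen with these values known. All points share the 6 arrays and their scaling.

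The order of arrays for LTI30 and COR47 moved with the difference between 3' and 5' signal of the GAPDH control, whereas the other controls gave other orders. The arrays with the smallest differences, 1.63 in WT replicate 2 and 2.39 in 35S::OsHOX24 replicate 3, had the highest signals of both dehydrin genes. Those with the largest, 4.80 in WT replicate 3 and 3.63 in 35S::OsHOX24 replicate 2, had the lowest signals of both. The actin control had its smallest and largest differences in WT replicates 2 and 3 as well, 5.37 and 6.84, but ordered the other arrays differently. The array with the lowest signals of both genes, 35S::OsHOX24 replicate 2, had the second smallest actin difference, 6.01 (log2), and 35S::OsHOX24 replicate 3, with the second highest signals, had the second largest, 6.57. The ubiquitin difference was 3.40 and 3.42 in these 2 arrays. The part of the GAPDH difference in the signals of LTI30 and COR47 was not tested. For GI, COR15A and COR15B, the replicate 1 arrays that were high had GAPDH differences of 3.25 and 3.29, in the middle of the 6 arrays. The low arrays of these genes included the smallest and the largest GAPDH difference. In replicate 1 of WT and 35S::OsHOX24 the actin difference was 6.27 and 6.42 (log2), and the ubiquitin difference was 2.78 and 3.67. The part of any of these differences in the signals of GI, COR15A and COR15B was not tested either.

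**Figure D3:**
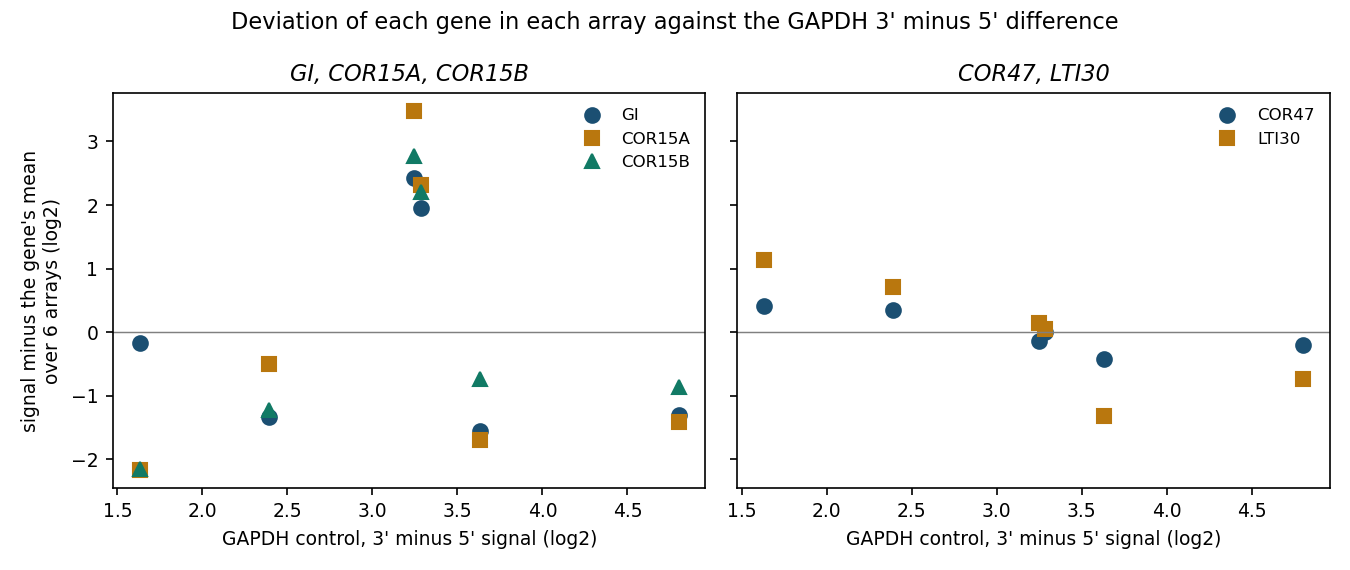
Signal of each gene in each array minus its own mean over the 6 arrays (log2), against the GAPDH control's 3' signal minus its 5' signal in that array (log2). In the left panel the 2 arrays with GAPDH differences of 3.25 and 3.29 are high for GI, COR15A and COR15B, and arrays on either side are low; in the right panel COR47 and LTI30 are highest at 1.63 and 2.39 and lowest at 3.63 and 4.80.

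The comparison of genotypes asked whether OsHOX24 over-expression altered these transcripts in unstressed seedlings. With limma, 0 of the 5 genes met the thresholds that the study used, a 2-fold difference with an unadjusted p up to 0.05, which 2.53% of all 22746 probe sets met. With the methods' t-test, run on the same values, it was also 0 of 5, against 1.28% of all probe sets. With limma, the adjusted p over all probe sets was 1 for each of the 5 genes. The ranges of the WT and the 35S::OsHOX24 arrays overlapped for all 5, and 7.17% of all probe sets had no overlap. Since the genes were chosen from these arrays, these counts are a description.

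In WT, the mean signal of GI was 8.25 ± 1.91 (log2, SD, n = 3). In 35S::OsHOX24 it was 7.64 ± 1.97 (SD, n = 3), and the difference was -0.62 (log2) with a standard error of 1.303. The 95% interval of this difference ran from -3.80 to 2.56. Without WT replicate 1 the log2 difference was 0.43, without 35S::OsHOX24 replicate 1 it was -1.75, and without 35S::OsHOX24 replicate 2 it was 0.0015.

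For COR15A the WT mean was 7.33 ± 3.06 (log2, SD, n = 3), and the 35S::OsHOX24 mean was 7.40 ± 2.06 (SD, n = 3). The interval of its log2 difference, -4.19 to 4.33, was the widest of the 5. For COR15B these means were 8.30 ± 2.55 (SD, n = 3) and 8.46 ± 1.85 (SD, n = 3), with an interval of -3.49 to 3.81. For both genes the sign of the difference turned without WT replicate 2, WT replicate 3 or 35S::OsHOX24 replicate 1. The replicate 1 arrays of the 2 genotypes were also left out together, which was decided once the data had been seen. Over the 4 remaining arrays, the log2 difference was 0.69 (standard error 0.59) for COR15A, 0.52 (0.58) for COR15B and -0.70 (0.52) for GI. None of these was past the thresholds, and the standard errors were less than those over all arrays, 1.74, 1.49 and 1.303.

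The dehydrin genes gave narrower intervals. COR47 had a mean of 12.04 ± 0.34 (log2, SD, n = 3) in the WT arrays. Its mean was 11.99 ± 0.39 (SD, n = 3) in 35S::OsHOX24, and the interval of its difference, -0.81 to 0.71, lay within 2-fold in either direction. LTI30 had means of 9.93 ± 0.93 (SD, n = 3) and 9.57 ± 1.04 (SD, n = 3), with an interval of -2.04 to 1.305. The sign of the mean difference of both genes turned without WT replicate 2 or without 35S::OsHOX24 replicate 2.

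**Figure D4:**
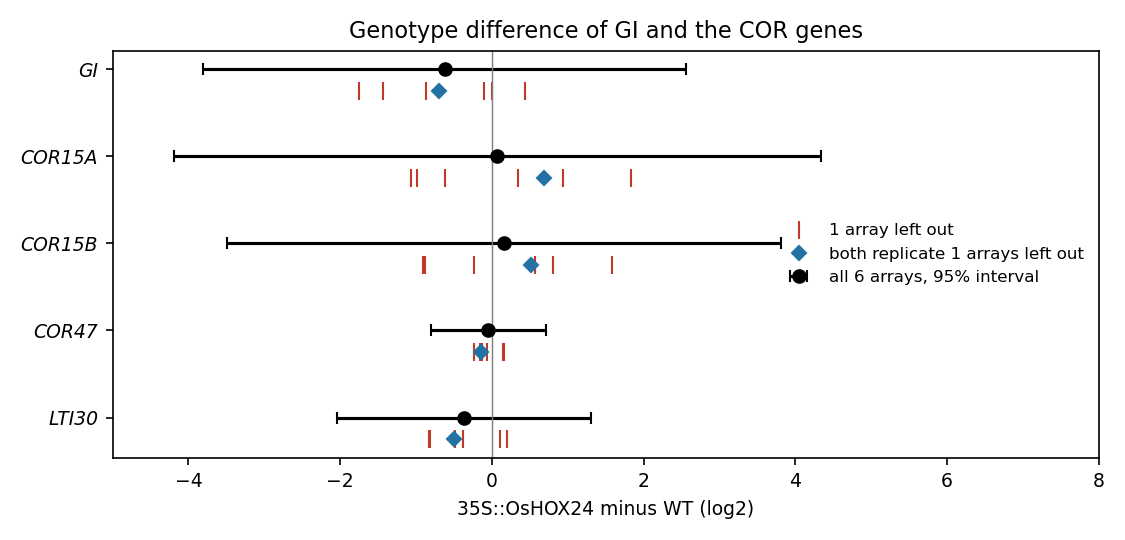
Log2 difference of 35S::OsHOX24 minus WT for each gene with its 95% interval from limma over all 6 arrays (black), the values with 1 array left out (red ticks) and with the replicate 1 arrays of both genotypes left out (blue diamonds). All 5 intervals include 0, and that of COR47, -0.81 to 0.71, is the narrowest.

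Other genes of the clock, of GI function, of the CBF pathway and of the cold response were taken from lists of 83 genes, of which 7 could be named on the array. The 28 other cold-regulated effector genes included none that could be named. The remaining genes, among them the CBF genes and the core clock genes, were not analysed here. With limma, none of the 7 was past the study's thresholds in either direction, beside 2.53% of all 22746 probe sets. Over so few genes this count is only a description. The log2 differences of the 7 lay between -0.63 and 0.16, with 6 of the 7 below 0, beside a median of -0.03 over all probe sets. Of all 22746 probe sets, 12186 were below 0. Those of SIZ1 (-0.002) and SPY (-0.06) were close to 0.

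Of these, COR27 and COR28 are closest to GI and the COR genes alike, since they are cold-induced, clock-controlled genes whose products repress evening clock genes. COR27 was 11.41, 10.67 and 11.23 (log2) in WT replicates 1, 2 and 3 and 10.84, 10.74 and 9.84 in 35S::OsHOX24 replicates 1, 2 and 3. COR28 was 9.89, 9.36 and 9.97 in WT replicates 1, 2 and 3 and 10.12, 9.61 and 8.68 in 35S::OsHOX24 replicates 1, 2 and 3. For both genes 35S::OsHOX24 replicate 3 was the lowest array, and neither showed the separation of replicate 1 from the other arrays seen for GI and the COR15 genes. The log2 differences between genotypes were -0.63 (standard error 0.37) for COR27 and -0.27 (0.42) for COR28.

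RVE6, a MYB-like activator of evening clock genes, was highest in WT replicate 2, at 7.80 (log2), and 6.37 to 6.89 in the other arrays. SPY, an O-fucosyltransferase that binds GI, was 8.42 to 8.96 over the 6 arrays. CDF5, a DOF repressor of flowering whose relatives are degraded through GI and FKF1, was read at 2.68 to 4.64, far under the array medians. In the cold pathway, SIZ1, a SUMO ligase that stabilises the CBF activator ICE1, was 8.52 to 9.42, and EIN3, an ethylene-response factor that represses CBF genes, was 9.72 to 10.76. EIN3, SIZ1 and RVE6 shared WT replicate 2 as their highest array with COR47 and LTI30, but none of the 7 genes was highest in both replicate 1 arrays.

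The genes most like each pattern were sought by Pearson's r over the 6 arrays among genes above the median signal that spanned at least 1 (log2) between arrays. Of 1946 genes, those most like GI were AT3G10300 (r = 0.99), AT1G56300 (0.99), ACA.l (0.97), AT3G26470 (0.97) and SD1-29 (0.96). SD1-29 is annotated as an S-domain protein. AT1G56300 was 11.28 and 11.34 (log2) in replicate 1 of WT and 35S::OsHOX24 and 9.56 to 10.29 in the other arrays, and AT3G10300 was 9.93 and 9.72 against 8.55 to 8.96. Both therefore had the same high pair of arrays as GI over a narrower range, and the measure rests largely on this pair. These r values are the highest of 1946, each over only 6 arrays.

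Of 1945 genes, those most like the mean of COR15A and COR15B were CSLC04 (r = 0.98), AT1G70740 (0.98), LHCB4.2 (0.98), PWD (0.98) and ARPN (0.98). CSLC04 makes the glucan backbone of xyloglucan, LHCB4.2 is an antenna protein of photosystem II and PWD is a glucan phosphorylating enzyme of starch breakdown. LHCB4.2 was 12.61 and 12.44 (log2) in replicate 1 of WT and 35S::OsHOX24 and 10.83 to 11.63 in the other arrays. PWD was 11.66 in each replicate 1 array and 10.55 to 10.99 in the others. The most opposite genes were AT1G47400 (r = -0.99), AT2G05540 (-0.98), IVD (-0.97), AT1G30260 (-0.96) and AT5G41350 (-0.96). AT1G47400 was 9.40 and 10.51 in replicate 1 of WT and 35S::OsHOX24 and 11.93 to 12.80 in the other arrays. IVD, which encodes isovaleryl-CoA dehydrogenase of leucine breakdown, was 9.03 and 9.38 in replicate 1 and 9.98 to 10.50 elsewhere.

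The pattern of COR47 and LTI30 was searched likewise, which was decided once their signals were known. Of 1946 genes, those most like the mean of this pair were AT1G52140 (r = 0.99), DRT100 (0.99), the glutathione transferase gene GSTU22 (0.99), AT3G27880 (0.98) and AT3G13610 (0.98). GSTU22 was 9.77 and 9.06 (log2) in WT replicate 2 and 35S::OsHOX24 replicate 3, 8.60 and 8.53 in the replicate 1 arrays, 7.66 in WT replicate 3 and 7.32 in 35S::OsHOX24 replicate 2. It thus stepped through the arrays in the order of LTI30. WT replicate 2 and 35S::OsHOX24 replicate 3 were above the other 4 arrays in 15.5% of the probe sets above the median signal. For the replicate 1 arrays this share was 8.92%. Each share counts only which arrays were highest, whatever the order of the rest, so having this top pair was common but the full ordering was not counted. Gaps of at least 1 (log2) were found in 111 probe sets for WT replicate 2 and 35S::OsHOX24 replicate 3 and in 19 for the replicate 1 arrays. Gaps of at least 2 were found in 12 and 4.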

How the data were processed

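The authors computed MAS5 signals (the sources used here give no version) from the Affymetrix arrays and deposited them as 1 table of log2 values, with a column per array. Arrays were assigned to WT or 35S::OsHOX24 from the sample labels, and the line name was taken from the paper. After leaving out 64 control probe sets, 22746 probe sets were fitted by lmFit and eBayes of limma 3.58.1 under R 4.3.3, without covariates, and p-values were adjusted by Benjamini-Hochberg, and the scripts were tested on simulated data. The number of arrays limits the precision. The paper names Student's t-test, which was an alternative, called the methods' t-test.

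A platform table gave 13513 probe sets with 1 gene, 503 with several and 8730 with none named here, and RefSeq symbols (assembly TAIR10.1) matched 13436 of the 13513. A gene read by more than 1 probe set was represented by the brightest. No genome build comes with the values, so no coordinates are given. Sequences of the genes were not used here.

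The members and the gene lists were chosen with earlier results of these data known. Genes named were the members, up to 4 measured genes of each list with the highest mean signal, and the 5 genes most like GI, most like and most opposite to the mean of the COR15 genes. The genes like COR47 and LTI30, and those with a large gap between the replicate 1 arrays and the others, were added once their values were known. The lists covered morning and evening clock genes, GI partners and flowering, CBF pathway regulators and other cold-regulated genes. Alternatives were quantile normalization, median centring, log2(signal + 16), array weights, a variance trend, the methods' t-test, a filter at the 40th percentile of signal, leaving out cross-hybridizing probe sets, the replicate block and leaving out arrays.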

Additional observations from a re-analysis of the deposited data

How the results depend on the processing

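None of the 5 genes passed the study's thresholds under any alternative run, and none passed an adjusted p of 0.05. With log2(signal + 16) the log2 difference of COR15A was -0.013 instead of 0.07, and no other scaling, filter or test changed a sign. With single arrays left out, the differences (log2) lay between -1.75 and 0.43 for GI, -1.06 and 1.83 for COR15A, -0.90 and 1.58 for COR15B, -0.23 and 0.16 for COR47, and -0.82 and 0.20 for LTI30. The correlation of COR47 and LTI30 was 0.90 to 0.996 over its alternatives. Correlations of the other planned pairs were not reported, for the separation of arrays given above. No member has another probe set, so that alternative was not run.

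Over all probe sets, 575 passed the study's thresholds with limma, 292 with the methods' t-test, 114 with log2(signal + 16) and 57 above the 40th percentile of signal, where fewer probe sets were tested. Leaving out 1 array at a time gave 615 to 751. With limma, 0 probe sets passed an adjusted p of 0.05 and 785 had an unadjusted p under 0.05, whereas the methods' t-test gave 0 and 798. Limma called 208 probe sets higher and 367 lower in 35S::OsHOX24, against 264 and 303 after quantile normalization.

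Same-numbered arrays of WT and 35S::OsHOX24 deviated in like directions for replicate 1, weakly over all probe sets, and in opposite directions for replicates 2 and 3. The deviations from the genotype means correlated at 0.11, -0.20 and -0.18 between same-numbered arrays of replicates 1, 2 and 3, or at 0.46, -0.50 and -0.53 over probe sets above the median signal. Over the latter, WT replicate 2 correlated at 0.68 with 35S::OsHOX24 replicate 3, and WT replicate 3 at 0.62 with 35S::OsHOX24 replicate 2. Over all probe sets these pairs correlated at 0.29 and 0.18, above the replicate 1 pair. Deviations from a mean of 3 arrays cancel out, so these values depend on each other and do not show which arrays belong together. With the replicate block, 678 probe sets passed the thresholds. The log2 difference of GI stayed at -0.62, with a standard error of 0.39 instead of 1.303 and an unadjusted p above the threshold. The standard error fell from 1.74 to 0.51 for COR15A and from 1.49 to 0.51 for COR15B. GI and the COR15 genes were chosen with both replicate 1 arrays known to be high, and the block takes up this step. Their smaller standard errors thus follow from that choice and support no pairing of arrays. The standard error rose from 0.31 to 0.39 for COR47 and from 0.68 to 0.83 for LTI30. The block made no call among the 5 genes.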
